A study of Bos taurus with 20 samples.

Results

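In the bovine ovarian follicle, 10 genes of the PIWI-interacting RNA (piRNA) pathway were examined: PIWIL1, PIWIL2, PIWIL3, PIWIL4, DDX4, MAEL, ASZ1, TDRD1, TDRKH, and MOV10L1. They were chosen by name as a set of genes of this pathway among 22550 genes or transcripts of a custom bovine microarray, and all 10 were on the array. They are not the whole pathway, and 25 other piRNA genes on the array are described separately below. Gene expression was measured on 20 arrays, with 4 replicates in each of 5 groups of immature or short-cultured bovine samples: theca cells (TH) scraped from the follicle wall, granulosa cells (GC), cumulus cells (CC) surrounding the oocyte, immature oocytes, and CC matured in vitro for 4 h (CC after IVM). All samples came from follicles of 3 to 6 mm in ovaries taken after slaughter, the labels state no age of the animals, and no genotype or agent other than the maturation culture was compared. The cells were separated by hand and not sorted, so an array of one cell type can hold RNA of its neighbours.

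The piRNA pathway protects the germline against transposable elements. PIWI proteins bind piRNAs, which guide them to matching transcripts, and a set of helicases, tudor-domain proteins, and scaffold proteins gathers around them in perinuclear granules (nuage) and on the mitochondrial surface to make and load these small RNAs. In most mammals outside the mouse and rat, the genome carries an additional PIWI gene, PIWIL3, known as an oocyte gene.

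In the oocyte, 9 of the 10 genes were higher than in the somatic mean, which is the average of the group means in TH, GC, and CC, and PIWIL4 did not pass the test. Of the 9, 7 (PIWIL1, PIWIL2, PIWIL3, DDX4, TDRD1, TDRKH, and MOV10L1) were above background in the oocyte and in no somatic group, which held for 7.42% of all genes on the array. Relative to the array 75th percentile, the lowest signal above background was -6.84 to -5.91 on oocyte replicates 1, 3, and 4. It was -5.72 to -4.58 on the somatic arrays and -4.02 on oocyte replicate 2. The 75th percentile was itself higher on the oocyte arrays, at intensities of 1521 to 2889 against 284 to 1101, so these limits are relative. For PIWIL1, the oocyte mean of -5.49 was under the median lowest signal above background of every somatic group. MAEL and ASZ1 were also measured in somatic cells, at far lower levels than in the oocyte. After IVM, ASZ1 fell in CC. Values are log2 of the spot intensity relative to the 75th percentile of the same array, the level of a gene is the median over its spots, and a group is called above background when at least 3 of its 4 arrays have a spot of the gene well above the local background by the scanner software. A level of one gene cannot be set against that of another on an array, because probes differ in brightness. In these bulk samples, fewer cells of a type and less RNA per cell cannot be told apart.

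The labels were checked against marker genes of each cell type. The mean level of 6 oocyte markers (GDF9, BMP15, ZP2, ZP3, ZP4, and NLRP5) was 5.14 to 5.53 on the oocyte arrays and -5.56 to -1.38 on the 16 somatic arrays, highest there on CC replicate 4. Markers of GC and CC (FSHR, CYP19A1, AMH, and INHBA) were at 2.70 to 4.46 in GC and 3.99 to 4.40 in CC. They were at -0.89 to 0.36 in TH. Markers of TH (CYP17A1, INSL3, COL1A1, COL1A2, and ACTA2) were at 5.56 to 5.90 in TH, 0.42 to 2.44 in GC, and -1.18 to -0.19 in CC. Some single markers were less specific, with INSL3 at a mean of 5.29 in GC and 4.54 in CC, and INHBA at 4.09 in TH. Of the endothelial markers, PECAM1 had means of 0.25 in TH and -7.53 in the oocyte, and VWF -0.02 and -0.59. Oocyte replicate 2 stood apart in sensitivity: 49.3% of its probes were above background, against a median of 65.0% of the oocyte arrays, and its lowest signal above background was -4.02. Arrays with replicates 1 and 2 of TH, GC, CC, and oocyte shared 1 slide, replicates 3 and 4 shared another, and the 4 arrays of CC after IVM were alone on the third slide, so that culture and slide cannot be told apart.

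Each gene was read by probes of 60 bases, 2 of different sequence per gene, printed here in the orientation of the scanner files. The PIWI paralogs are similar in sequence, so the pair of PIWI probes with the most identical bases, from PIWIL1 and PIWIL3, is shown with the bases that differ, or that lie outside the aligned stretch, in capitals.
PIWIL1 probe 2: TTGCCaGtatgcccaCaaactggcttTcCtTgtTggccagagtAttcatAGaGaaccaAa
PIWIL3 probe 2: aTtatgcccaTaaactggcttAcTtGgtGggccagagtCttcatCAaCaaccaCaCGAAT
They shared 44 of 55 aligned bases (80.0%), with no identical run over 10 bases. The PIWIL4 probe is shown because it is the one of its gene that gave most of the signal.
PIWIL4 probe 2: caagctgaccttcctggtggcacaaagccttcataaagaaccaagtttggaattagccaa
The probes of MOV10L1 are shown because both gave the same order of the oocyte arrays, described below, and they share no stretch.
MOV10L1 probe 1: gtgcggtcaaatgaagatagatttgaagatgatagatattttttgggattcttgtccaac
MOV10L1 probe 2: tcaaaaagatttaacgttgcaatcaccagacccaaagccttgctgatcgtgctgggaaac

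The oocyte and the somatic mean were compared with limma on the 16 arrays of the 4 uncultured cell types, with p-values adjusted over all 22550 genes. Of the 10 piRNA genes, 9 were called higher in the oocyte, against 32.9% of all genes, and none was called lower, against 38.3%. The same count of 9 was called higher than each of TH, GC, and CC, against 26.6% of all genes. The F-test over the 4 cell types called 9, against 71.3%. The median difference of the 10 genes was 5.17, or 3.65 with dim groups set at their bound, and that of all genes was -0.52, a shift that another scaling moves (-0.01 after quantile normalization). For 8 genes the lowest oocyte array was above the highest of all 16 somatic arrays, against 21.9% of all genes, and the exceptions were PIWIL1 and PIWIL4. Within the slide of replicates 1 and 2 alone, 9 genes were called higher than the somatic mean, and 9 within the slide of replicates 3 and 4.

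**Figure D1:**
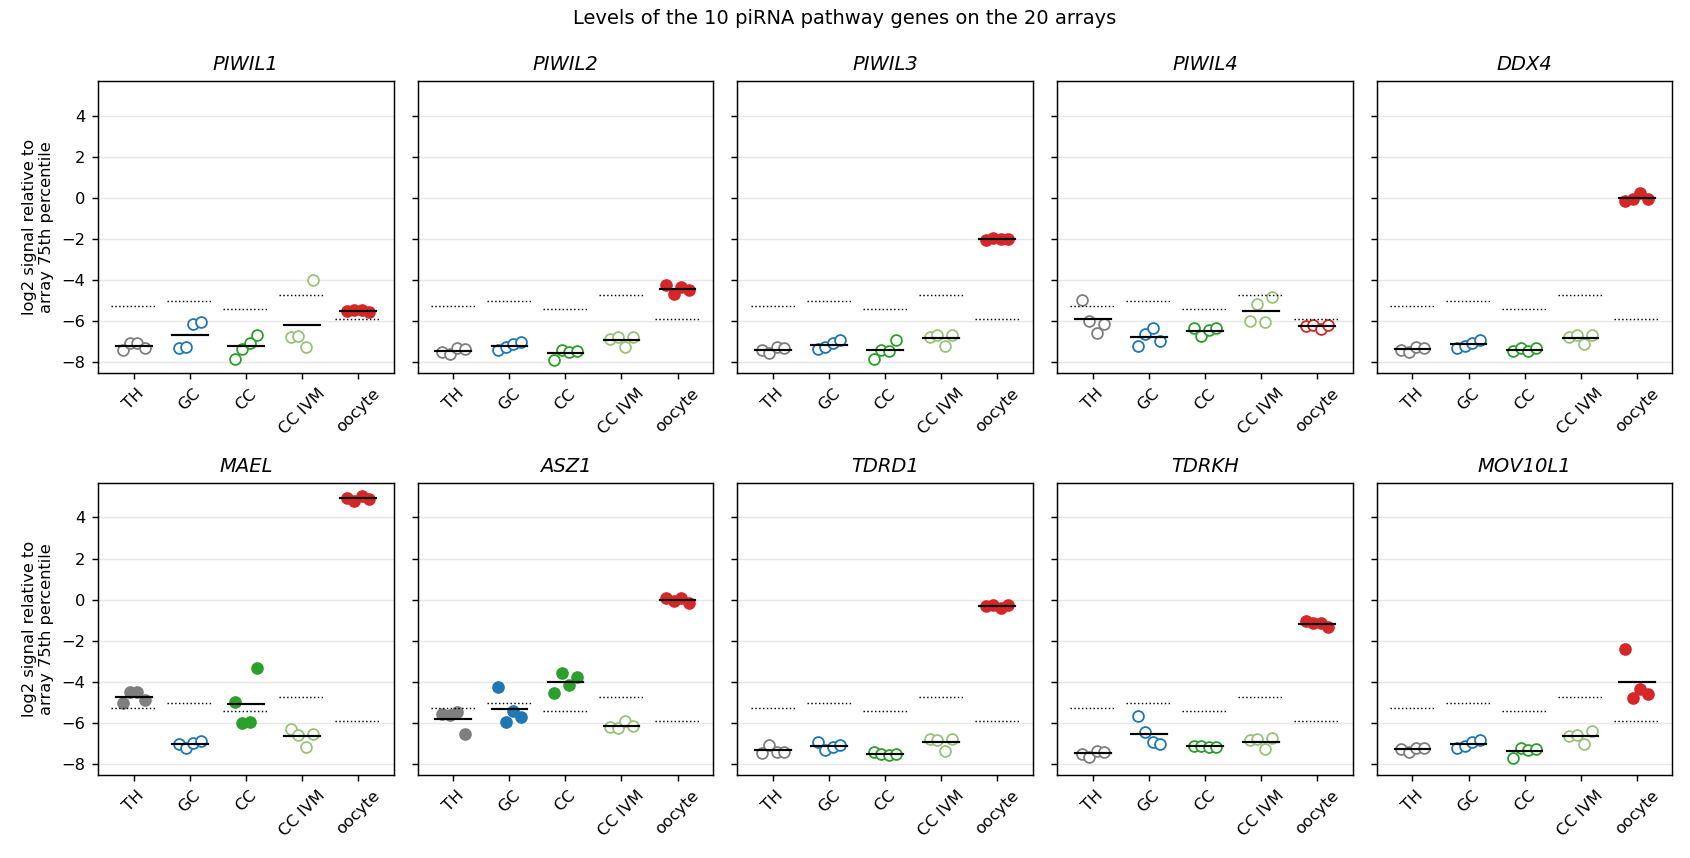
Each panel is 1 gene, with the log2 signal relative to the array 75th percentile on the vertical axis and the 5 groups on the horizontal axis. Points are the 4 arrays of a group in the order of their replicate numbers (filled where the group was above background), short solid lines are group means, and dotted lines are the mean over a group's arrays of the lowest signal well above background. The oocyte points lie above every somatic point in 8 panels and within the somatic range for PIWIL1 and PIWIL4.

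The 4 PIWI genes code for the piRNA-binding proteins themselves, and they differed in how clearly the oocyte stood out. PIWIL3 (ENSBTAT00000020633, chr17:67222565-67247048, UMD 3.1) was at -2.06, -1.96, -2.01, and -2.01 on the 4 oocyte arrays. Its somatic values ran from -7.84 to -6.69, all below background, without overlap. The oocyte was at least 9.39-fold higher than the somatic mean (limma, measured difference 5.30 ± 0.14 SE, adjusted p = 4.8e-14). A bound is given in place of a fold because a group below background has no measured level: the oocyte mean is set against the lowest signal that each dim array could show above background. Both PIWIL3 probes gave this pattern, with oocyte means of -1.86 and -2.16.

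PIWIL2 (ENSBTAT00000021039, chr8:70094806-70175916), whose mouse counterpart takes part in primary piRNA production, was at -4.23, -4.69, -4.35, and -4.48 in the oocyte. Oocyte replicate 2 was the one oocyte array below background. Somatic values ran from -7.90 to -6.76, below the 4 oocyte arrays, and the oocyte was at least 1.75-fold higher than the somatic mean (limma, measured difference 2.98 ± 0.13 SE, adjusted p = 7.3e-12). One of its 4 spots on GC replicate 2 read -4.13 while the median of the others was -7.30. With normexp background correction the difference was -0.30 (adjusted p = 0.11), and in the deposited log2 table, made without background subtraction, it was 0.82 (adjusted p = 3.6e-06). The median of all genes was then -1.30 and -0.63.

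PIWIL1 (ENSBTAT00000008482, chr17:47726941-47761637) was close to the detection limit. It was at -5.51, -5.46, -5.46, and -5.54 in the oocyte, above background on 3 of 4 arrays. Somatic values ran from -7.83 to -6.03 on the 12 arrays of uncultured somatic cells, all lower than the oocyte, but CC after IVM replicate 4 was at -3.99. That value came from 1 of the 2 spots, at -1.22, while the other spot was at -6.75 and below background. PIWIL1 was called higher in the oocyte than in the somatic mean (limma, difference 1.56 ± 0.24 SE, adjusted p = 2.7e-05). No fold is given, since the oocyte mean lies under the median lowest signal above background of each somatic group. The direction depended on the processing: with normexp background correction the difference was -0.86 (adjusted p = 0.00015), and in the deposited log2 table it was 0.15 (adjusted p = 0.28). The median of all genes was -1.30 and -0.63 there, below the PIWIL1 values.

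PIWIL4 (ENSBTAT00000019851, chr15:16108232-16164098), which in the mouse testis acts in the nucleus to direct DNA methylation, was below background in all 5 groups. It was at -6.39 to -6.18 in the oocyte, inside the somatic range of -7.20 to -4.81. Oocyte and somatic mean did not pass the test (limma, difference 0.13 ± 0.23 SE, adjusted p = 0.61). Its probes differed, with probe 2 at -5.61 in the oocyte and -4.35 in CC after IVM, and probe 1 at -6.90 and -6.69. Its direction changed with the processing. PIWIL4 was lower in the oocyte with normexp background correction (-1.24, adjusted p = 6.9e-07) and in the deposited log2 table (-0.47, adjusted p = 0.00078), where the median of all genes was -1.30 and -0.63.

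**Figure D2:**
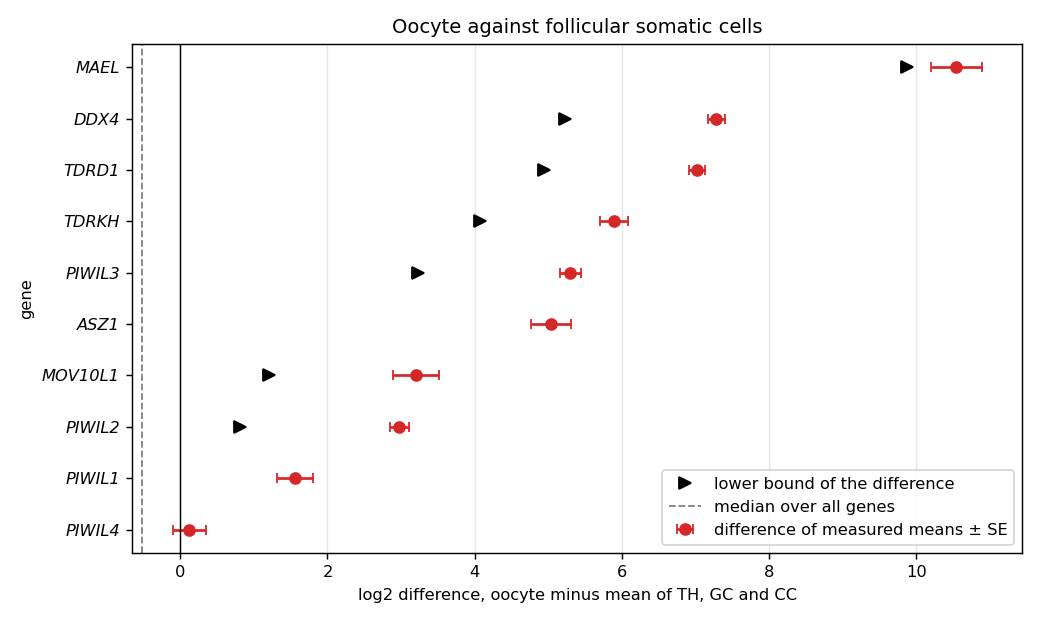
For the 10 genes, the plot gives oocyte minus somatic mean on the log2 scale, with circles for the difference of the measured means ± SE from limma and triangles for the lower bound where a somatic group was below background. The differences ran from 0.13 for PIWIL4 to 10.55 for MAEL, and the dashed line marks the median of all genes at -0.52.

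In the genes of the nuage and of piRNA processing, the oocyte was the highest group. DDX4 (ENSBTAT00000011682, chr20:23379443-23444459), the VASA RNA helicase used as a germ cell marker, was at -0.17, -0.07, 0.23, and -0.05 in the oocyte. Its somatic values ran from -7.51 to -6.66 and were below background in every somatic group. The oocyte was at least 37.5-fold higher than the somatic mean (limma, measured difference 7.28 ± 0.11 SE, adjusted p = 4.3e-16). A lone spot at -4.11 on GC replicate 4 was the one somatic signal above background, against a median of -6.93 for the other 3 spots.

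TDRD1 (ENSBTAT00000009002, chr26:34947479-34985364), a tudor-domain scaffold that binds methylated arginines of PIWI proteins, was at -0.30, -0.24, -0.41, and -0.28 in the oocyte. On the somatic arrays it ran from -7.57 to -6.81, with no array above background. The difference was at least 30.6-fold (limma, measured difference 7.02 ± 0.11 SE, adjusted p = 4.3e-16).

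TDRKH (ENSBTAT00000028777, chr3:19030951-19051640), a mitochondrial tudor protein needed for trimming of piRNA ends, was at -1.03, -1.16, -1.13, and -1.35 in the oocyte. It was below background on all 16 somatic arrays, where it ran from -7.67 to -5.67 with GC replicate 1 the highest. The oocyte was at least 16.9-fold higher than the somatic mean (limma, measured difference 5.89 ± 0.19 SE, adjusted p = 3.0e-13). Probe 2 was the brighter, at -0.56 in the oocyte against -1.78 for probe 1, and the probes share no stretch of sequence.

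MOV10L1 (ENSBTAT00000027109, chr5:121099143-121164873), the RNA helicase that starts piRNA processing, was uneven among the oocyte arrays. Replicate 1 was at -2.40, and replicates 2, 3, and 4 were at -4.81, -4.35, and -4.60. The 2 probes both gave this order, with replicate 1 at -2.97 by probe 1 and -1.82 by probe 2, and the others between -4.90 and -4.34. Somatic values ran from -7.73 to -6.41, below every oocyte array, so that the oocyte was at least 2.3-fold higher (limma, measured difference 3.20 ± 0.31 SE, adjusted p = 1.4e-07), and without oocyte replicate 1 the difference was 2.65. Lone probe 2 spots above background read -3.66 on GC replicate 4 and -4.25 on CC after IVM replicate 4. The medians of the other spots on these arrays were -6.87 and -6.50. Oocyte replicate 1 was more than 1 log2 unit above the next oocyte array for 4.86% of the genes above background in the oocyte, against 0.0664 to 1.05% for the other replicates. TDRD9, another piRNA helicase, was among them, at -1.10 on replicate 1 and -3.11 to -2.72 on the others, and what sets this replicate apart was not tested. With normexp background correction the MOV10L1 difference was -0.10 (adjusted p = 0.71), where the median of all genes was -1.30.

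MAEL (ENSBTAT00000034103, chr3:1881239-1937675), a nuage protein required to silence transposons, had the largest difference of the 10 genes. It was at 4.95, 4.81, 5.05, and 4.92 in the oocyte. TH was at -5.04, -4.48, -4.50, and -4.89, above background on all 4 arrays, and CC at -5.00, -6.00, -5.97, and -3.35, above background on 3. GC ran from -7.21 to -6.87 and CC after IVM from -7.17 to -6.28, both below background. The oocyte was at least 941-fold higher than the somatic mean with CC taken as measured (limma, measured difference 10.55 ± 0.35 SE, adjusted p = 3.3e-13). CC replicates 2 and 3 lay under the lowest signal above background of their arrays (-5.26 and -5.34), so this bound is not strict. Both probes gave oocyte means near this level, 4.62 and 5.25.

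ASZ1 (ENSBTAT00000000194, chr4:51294535-51370344), an ankyrin-repeat protein of the nuage and the mitochondrial surface, was measured in all 4 cell types. It was at 0.09, -0.08, 0.09, and -0.19 in the oocyte. Of the somatic cells, CC were the highest, at -4.54, -3.59, -4.17, and -3.78, GC were at -4.26, -5.97, -5.42, and -5.72, and TH at -5.57, -5.63, -5.49, and -6.54. The oocyte was 5.04 ± 0.28 SE above the somatic mean (limma, adjusted p = 1.3e-10) and 4.00 ± 0.34 above CC, the nearest group. Its probes overlap by 48 bases and still differed in brightness, with probe 2 at 1.09 and probe 1 at -1.13 in the oocyte. Probe 1 was above background on 0 of 4 arrays in TH and in GC and on 2 of 4 in CC, so the somatic level is in part that of background, and no fold is given. By the brighter probe alone the difference from the somatic mean was 4.88 ± 0.33 SE (limma, adjusted p = 2.6e-09).

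Among TH, GC, and CC, 3 of the 10 genes differed (limma F-test over the 16 arrays), against 34.1% of all genes, and these were MAEL, ASZ1, and TDRKH. For MAEL, GC was lower than TH (-2.31, adjusted p = 0.00073, a call that 11.8% of all genes had), and CC was 1.96 above GC (adjusted p = 0.0078, against 5.28%), while CC and TH did not pass the test (-0.35 ± 0.42, adjusted p = 0.64). Against GC, which was below background, TH was at least 1.23-fold higher, and CC has no fold, since its mean lay under the lowest signal that the GC arrays could show. For ASZ1, CC was 1.79 ± 0.34 above TH (adjusted p = 0.00068, against 17.4%) and 1.32 ± 0.34 above GC (adjusted p = 0.021), and GC and TH did not pass the test (0.46 ± 0.34, adjusted p = 0.38). On every TH array and on GC replicates 2 to 4, ASZ1 lay under the lowest signal above background of the array. The size of these ASZ1 differences therefore has no measured lower end. TDRKH was 0.96 higher in GC than in TH (adjusted p = 0.0063, against 14.5%), but below background in both. With normexp background correction none of the 10 genes was called, and within the slide of replicates 1 and 2 it was 1 gene.

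The mean level of the oocyte markers was -2.60, -3.27, -3.61, and -1.38 on CC replicates 1 to 4, and MAEL was likewise highest on replicate 4 and next on replicate 1. On replicates 2 and 3, MAEL was near equal (-6.00 and -5.97) and under the lowest signal above background of each array. In TH, where MAEL was above background on all arrays, the markers were at -4.75 to -4.04, with 5 of the 6 above background, and in GC at -5.31 to -4.14, with 3 of the 6. ASZ1 had another order in CC, with replicate 2 the highest at -3.59. The part of oocyte RNA in the somatic levels of MAEL and ASZ1 was not tested. Without CC replicate 4 and oocyte replicate 2, the count of genes higher in the oocyte was again 9.

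**Figure D3:**
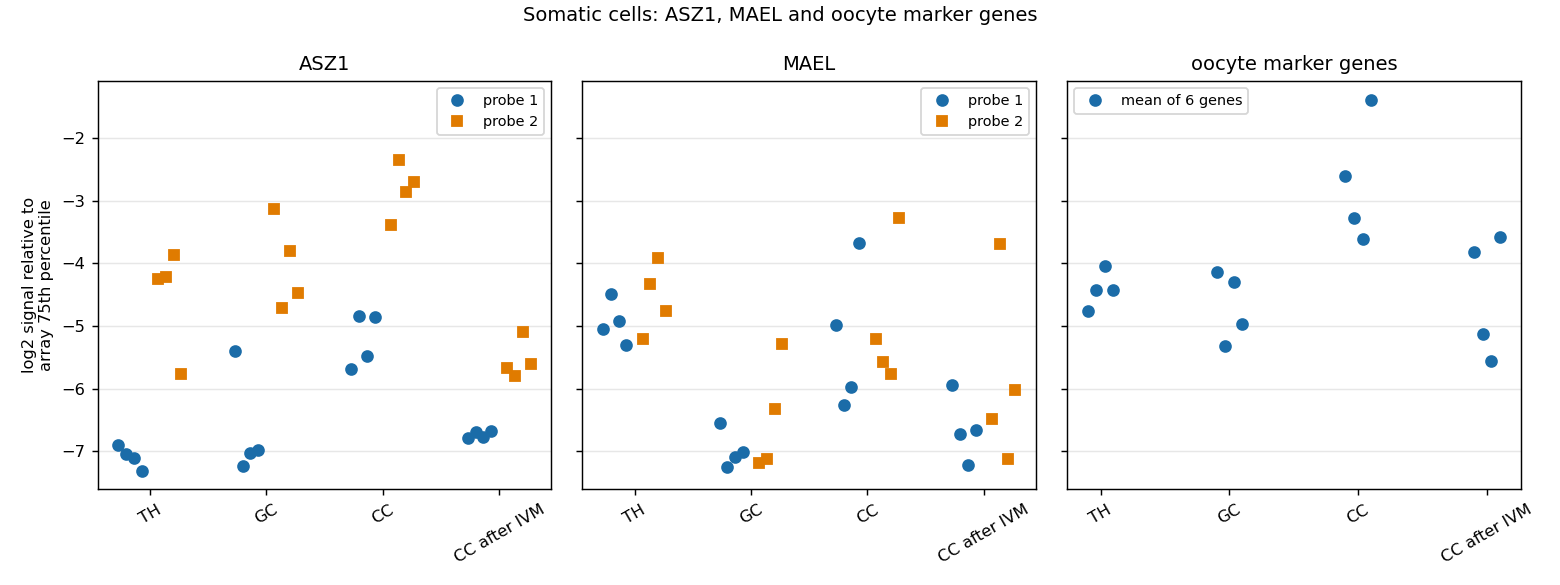
The log2 signal relative to the array 75th percentile is plotted for each probe of ASZ1 and MAEL and for the mean of 6 oocyte marker genes, on the 4 arrays of TH, GC, CC, and CC after IVM. Both ASZ1 probes have their highest group mean in CC and are lower on every array after IVM than on any CC array, MAEL is highest on CC replicate 4 by both probes, and the marker mean is highest on the same array at -1.38.

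In CC after IVM, the 4 arrays were compared with the 4 arrays of uncultured CC (limma on these 8 arrays). Of the 10 piRNA genes, 7 were called, against 45.8% of all genes, of which 5 were higher (30.3% of all genes) and 2 lower (15.5%). The 5 higher genes (PIWIL2, PIWIL4, DDX4, TDRD1, and MOV10L1) were below background in both groups, with differences of 0.55 to 0.94 beside a median of 0.37 for all genes, and none has a fold. The lowest signal above background was itself higher after IVM, at a median of -4.64 against -5.33 in CC. Its part in these rises was not tested. With quantile normalization these 5 were no longer called, and the count was 3. It was 2 with the replicate number as a block, 1 with the brightest probe of each gene, and 1 to 7 when 1 array was left out (1 without CC replicate 1 or CC after IVM replicate 4).

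ASZ1 fell by 2.12 on the log2 scale after IVM (SE 0.24, adjusted p = 0.00015). It was at -6.23, -6.24, -5.94, and -6.14 after IVM, below background on all 4 arrays and lower than every CC array, an order that 14.9% of all genes had. CC was at least 1.65-fold higher than CC after IVM. Both probes moved the same way, from -5.22 to -6.74 by probe 1 and from -2.83 to -5.54 by probe 2. With normexp background correction the call was lost (-0.03, adjusted p = 0.84), and in the deposited log2 table the fall was -0.60 (adjusted p = 0.0022). The median of all genes was then 0.55 and 0.25. The mean of the oocyte markers was -3.61 to -1.38 in CC and -5.56 to -3.57 after IVM, and its part in the lower levels of ASZ1 and MAEL after IVM was not tested.

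MAEL was lower after IVM (limma, difference -1.57 ± 0.53 SE, adjusted p = 0.037), but no fold is given, since the mean of CC lay under the lowest signal that the arrays after IVM could show. One probe 2 spot on CC after IVM replicate 2 read -0.91 against a median of -6.69 for the other 3 spots. The call was lost without CC replicate 1 (-1.54, adjusted p = 0.081), without CC after IVM replicate 1 (-1.69, adjusted p = 0.058), 2 (-1.59, adjusted p = 0.062), 3 (-1.39, adjusted p = 0.090), or 4 (-1.60, adjusted p = 0.068), and without CC replicate 4 the value was -0.99 (adjusted p = 0.046). The direction turned with normexp background correction (0.27, adjusted p = 0.15) and with the brightest probe (0.033, adjusted p = 0.99). The median of all genes was 0.55 and 0.26 there.

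Against CC after IVM, 8 of the 10 genes were higher in the oocyte, against 30.4% of all genes (limma on the 20 arrays). MAEL was at least 817-fold higher, DDX4 at least 26.5-fold, ASZ1 at least 26.4-fold, TDRD1 at least 21.6-fold, TDRKH at least 11.9-fold, and PIWIL3 at least 6.65-fold. PIWIL2 and MOV10L1 were called with bounds of 1.24-fold and 1.63-fold. PIWIL1 did not pass the test (0.71 ± 0.51, adjusted p = 0.20), with the lone spot on CC after IVM replicate 4 inside its spread. PIWIL4 was lower in the oocyte by the test (-0.74 ± 0.31, adjusted p = 0.038, against 49.8% of all genes), below background in both groups. These values share their oocyte arrays with the comparison above.

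A further 27 genes of the pathway were listed, of which 25 were on the array. Of these, 19 were higher in the oocyte than in the somatic mean (32.9% of all genes), 3 were lower (38.3% of all genes), and 3 did not pass the test, with a median difference of 2.76, or 1.44 with dim groups at their bound. The 4 largest rises by the fitted difference were in GTSF1, STK31, GPAT2, and PNLDC1. GTSF1, a small PIWI-binding zinc finger protein, had an oocyte mean of 4.67 and was at least 666-fold higher than the somatic mean (limma, adjusted p = 6.5e-10). STK31, a tudor-domain protein of germ cells, was at least 102-fold higher with CC taken as measured (oocyte mean 1.61, adjusted p = 3.4e-11). On CC replicates 2 and 3, STK31 (-5.49 and -5.39) lay under the lowest signal above background, so this bound is not strict. GPAT2, a mitochondrial protein of piRNA production, was 6.33 ± 0.22 higher (adjusted p = 7.0e-13), and PNLDC1, the nuclease that trims piRNA ends together with TDRKH, 6.33 ± 0.15 higher (adjusted p = 1.2e-14). The PNLDC1 levels in TH, GC, and CC (-6.25 to -5.40) lay under the lowest signal above background of their arrays. TH, GC, and CC were counted above background through single spots, so the size of the PNLDC1 difference has no measured somatic end.

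The 2 largest falls among these genes were in SPOCD1 and DNMT3L, partners of nuclear DNA methylation directed by piRNAs. SPOCD1 was lower in the oocyte (-2.42 ± 0.51, adjusted p = 0.00053), and DNMT3L was called (-1.22, adjusted p = 0.0012) though below background in the oocyte, TH, GC, and CC. In CC after IVM, DNMT3L was above background on 3 of 4 arrays, at a mean of -4.73. MYBL1, the transcription factor that switches on piRNA genes in the mouse testis, was at -3.22 to -2.91 in the oocyte and -4.41 to -2.90 in TH, GC, and CC, 0.59 ± 0.17 above the somatic mean (adjusted p = 0.0058), with TH at a mean of -3.12 and the oocyte at -3.10. After IVM, 15 of the 25 were called (45.8% of all genes), 7 higher (30.3%) and 8 lower (15.5%) than in CC. The count was 8 with quantile normalization and 7 without CC replicate 1.

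Argonaute (AGO) proteins are the other branch of the family and load miRNAs rather than piRNAs. Of 16 AGO and miRNA genes on the array, 8 were higher in the oocyte (32.9% of all genes), 7 were lower (38.3% of all genes), and 1 did not pass the test, with a median difference of 0.21. None of the 16 was above background in the oocyte and in no somatic group. This held for 7.42% of all genes, a share at which a list of 16 can well hold none. It held for 7 of the 10 piRNA genes described here and 6 of the 25 others, and the difference between the lists was not tested. TARBP2, a partner of DICER1, was 2.74 ± 0.13 higher in the oocyte than in the somatic mean (limma, adjusted p = 3.0e-11), AGO2 2.34 ± 0.12 (adjusted p = 7.5e-11), DROSHA 2.31 ± 0.14 (adjusted p = 4.1e-10), and PARN 2.09 ± 0.12 (adjusted p = 1.7e-10). Against CC after IVM, TARBP2, DROSHA, and PARN were also higher in the oocyte. AGO2 was lower there, at a mean of 1.68 against 2.81 in CC after IVM (limma, -1.13 ± 0.22 SE, adjusted p = 0.00015). The 2 largest falls by the fitted difference were AGO4 (-4.13 ± 0.26, adjusted p = 6.9e-10) and TNRC6C (-2.24 ± 0.29, adjusted p = 4.4e-06). TNRC6C was above background on 1 of 4 oocyte arrays, so only a bound is given for it, at least 1.96-fold lower, and its rank has no measured end point. The TNRC6C bound takes TH as measured. On TH replicates 1, 3, and 4 the gene (-5.67, -5.86, and -6.69) lay under the lowest signal above background, so the bound is not strict. AGO4 was counted above background on 3 of 4 oocyte arrays. Its levels there (-7.56 to -5.58) still lay under the lowest signal above background of each array, so the size and rank of its fall are likewise not measured.

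The nearest relatives of the helicases in the list gave a different picture. MOV10, the paralog of MOV10L1, was above background on all 20 arrays, at 4.07 to 4.32 in the oocyte and 2.55 to 3.45 in TH, GC, and CC, a difference of 1.21 ± 0.13 (limma, adjusted p = 5.6e-07). DDX3X, a DEAD-box relative of DDX4, was at 2.46 to 2.77 in the oocyte and -0.45 to 1.11 in these cells, 2.28 ± 0.21 higher (adjusted p = 7.0e-08). Both were thus measured in every somatic group, where MOV10L1 and DDX4 were below background.

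**Figure D4:**
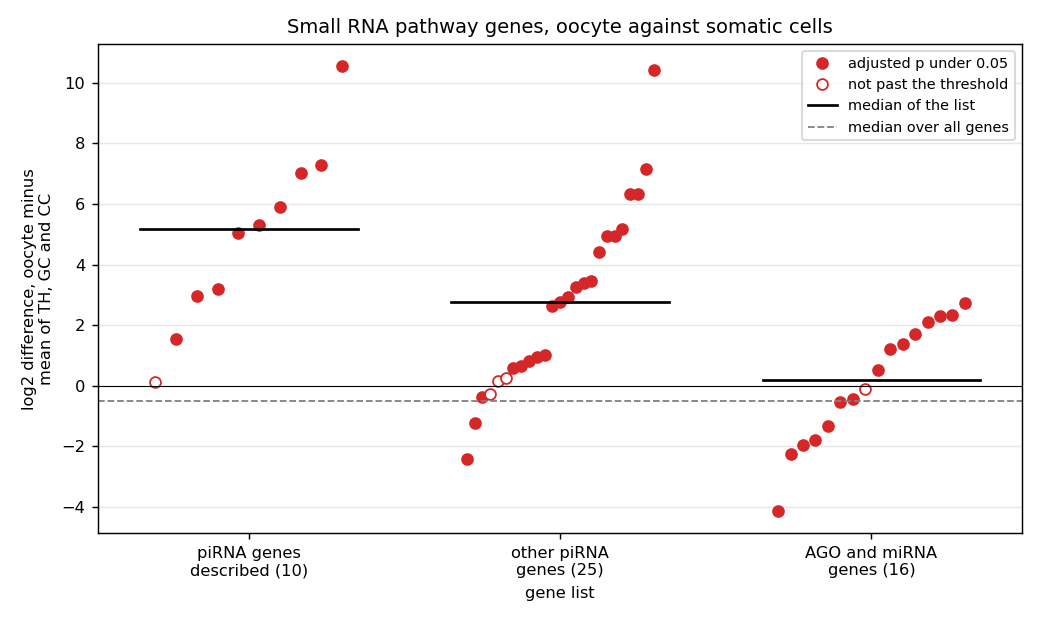
For each gene of 3 lists, the vertical axis gives oocyte minus somatic mean on the log2 scale, in order of size within a list. Filled circles passed the test (limma, adjusted over all genes), solid lines are list medians (5.17, 2.76, and 0.21), and the dashed line is the median of all genes at -0.52.

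For PIWIL2 and PIWIL3, the other genes with the most similar profile over the 20 arrays were found among 12499 named genes above background in the oocyte, by the mean absolute difference of levels after each gene was centred on its own mean. The nearest to PIWIL3 were SLC26A4 (0.08), FRMD5 (0.11), and CTB (0.12), and to PIWIL2 GPR1 (0.06), ANO5 (0.07), and C14orf39 (0.07). On the 16 somatic arrays PIWIL3 was above background on 0 and PIWIL2 on 1, so the distance there compares values at background, and any gene of a like oocyte level that is dim in somatic cells would come near. PIWIL1 and PIWIL4 are not ranked, since PIWIL4 was below background in every group and the profile of PIWIL1 holds the lone spot on CC after IVM replicate 4.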

How the data were processed

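RNA of 20 bovine samples was labelled with Cy3 from 200 ng and hybridized to a custom Agilent array. The authors deposited, per spot, Feature Extraction (version 10.7.3.1, per the submitters' processing notes) intensity values, background-subtracted but not normalized between arrays, on the UMD 3.1 build, with a score of 0 or 1 that marks spots clearly above the background and outliers. The authors also deposited a table of log2 values, equal to the median spot signal minus the array median within 5.0e-09, with no background subtraction.

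After removal of controls and of spots marked as outliers, the array 75th percentile of log2 processed intensity over 61325 probes was subtracted, and the median was taken over the spots of a gene. Of 9779 unnamed probes, 734 were named by accession from a RefSeq table. Models were fitted in limma 3.58.1 (lmFit and eBayes, R 4.3.3) and adjusted by Benjamini–Hochberg over 22550 genes, with a threshold of 0.05. The cell types were compared on 16 arrays, CC after IVM with CC on 8, and the oocyte with CC after IVM on 20. Figures and summaries used Python 3.11.15, pandas 2.3.3, numpy 2.4.6, and matplotlib 3.10.9. The fits were tested on simulated data.

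The methods used an analysis of variance with the median over spots, run here as an alternative for the 4 cell types. No slide effect can be fitted as a fixed term for CC after IVM, alone on its slide. The number of arrays (4 per group) limits the precision, and p-values measure the spread between these samples. The labels do not say whether a replicate number marks a shared animal or pool, and the main fits did not pair the samples. The deviations of same-numbered arrays correlated by -0.184 to 0.372 between groups, and by over 0.1 in every pair for TH and GC only. For TH and GC the range was 0.125 to 0.372, against -0.287 to 0.155 between other numbers. These correlations cannot show whether the samples were independent. The piRNA genes, the other lists, and the tests were chosen with earlier results of these data known. The text names all 10 piRNA genes, in the other lists the 4 largest rises and 2 largest falls among called genes, MYBL1, MOV10, and DDX3X, and 3 neighbours each of PIWIL2 and PIWIL3. The rule also named neighbours of PIWIL1 and PIWIL4, left out because of their background-level values. TDRD9 and the lone spots were named after their values were seen. Promoter and protein sequences were not analysed here. The 60-base probes of the remaining genes are not printed.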

Additional observations from a re-analysis of the deposited data

Results flagged for a closer look

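Among 50 combinations of the 10 genes and 5 groups, 5 had 1 array that lay far from the other 3 by Dixon's test, and chance gives about 1 in 20. PIWIL1 was at -3.99 on CC after IVM replicate 4, against -7.28 to -6.75 on the other 3, from a single spot. ASZ1 was at -6.54 on TH replicate 4, where it was below background, against -5.63 to -5.49. On CC after IVM replicate 3, PIWIL3 (-7.23), TDRD1 (-7.36), and TDRKH (-7.30) were all lower than on the other arrays of the group and below background on all 4, so these 3 values have no order.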

How the results depend on the processing

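The counts of piRNA genes higher in the oocyte than in the somatic mean (9), than each somatic cell type (9), and than CC after IVM (8), and those of the other piRNA genes (19) and of the AGO and miRNA genes (8), stayed within 1.5 times under every alternative run. The lowest count of the first 3 was 6, with normexp background correction. No member was above 0.05 in the oocyte comparison when 1 array was left out, other than PIWIL4, which was not called. The count changed after IVM (7) was 3 with quantile normalization, 1 with the brightest probe of each gene, and 2 with the replicate block, which kept ASZ1 and MAEL, and ranged from 1 to 7 when 1 array was left out (1 without CC replicate 1 or CC after IVM replicate 4, 2 without CC replicate 3, 4 without CC replicate 2 or CC after IVM replicate 2). The count differing among TH, GC, and CC (3) was 5 with the percentile over probes above background on all arrays, 0 with normexp background correction, and 1 within the slide of replicates 1 and 2. The other piRNA genes changed after IVM (15) were 8 with quantile normalization and 7 to 13 with 1 array left out (7 without CC replicate 1, 9 without CC replicate 3 or 4, 8 without CC after IVM replicate 4). The replicate block changed no call of the oocyte comparison (9).

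Signs turned with normexp background correction for PIWIL1 (-0.86), PIWIL2 (-0.30), PIWIL4 (-1.24), and MOV10L1 (-0.10) in the oocyte and for MAEL after IVM (0.27), with the deposited log2 table for PIWIL4 in the oocyte (-0.47), with the brightest probe for MAEL after IVM (0.033), and with quantile normalization for DDX4 (-0.045), TDRD1 (-0.039), and TDRKH (-0.37) after IVM. Differences that were not called and turned sign without passing the test were PIWIL3 after IVM with quantile normalization (-0.085), TDRKH after IVM with the brightest probe (-0.54), and PIWIL4 in the oocyte with the percentile over probes above background on all arrays (-0.090). With normexp background correction the median of all genes was itself -1.30 in the oocyte comparison and 0.55 after IVM. The cause of the turned signs was not tested. The slide as a random block, added after seeing the data, gave 9 genes changed after IVM and 8 higher in the oocyte than in CC after IVM. The slide as a fixed block and within-slide fits could not be run for CC after IVM. Signal over background limits the dim genes: PIWIL1, PIWIL2, and MOV10L1 were below background on oocyte replicate 2.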
